A study of Mus musculus with 6 samples.

Results

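The RNA of 7 Schwann cell and myelin genes, Pmp22, Mbp, Sox10, Mag, Prx, Ncmap and S100b, was followed in the tibialis anterior (TA) muscle of aged mice. The genes were taken by symbol from the TPM tables (a level scaled for transcript length and for the library's total) and joined by gene identifier to the raw counts. All 7 were found among the 45777 genes of the count table, and all 7 were among the 16188 genes kept for testing. The mice were male C57BL/6J, labelled as 24 months old. For 1 month, 3 of them received vehicle (DMSO with tween 80) and 3 received BML-260 at 5 mg/kg in the same vehicle, by daily intraperitoneal injection. BML-260 is a rhodanine-based inhibitor of the phosphatase DUSP22. Libraries were made from total RNA of the TA muscle, so nerve tissue enters them together with muscle fibers, vessels, fat and connective tissue. No sorted Schwann cells were measured. The study used these libraries to ask how DUSP22 targeting changes gene expression in aged muscle, and the questions here were how much Schwann cell RNA each library held and whether it differed between the groups.

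Schwann cells are the glia of peripheral nerves. A myelinating Schwann cell wraps a single axon in compact myelin, and a non-myelinating one keeps several thin axons in separate pockets. SOX10 is the transcription factor that Schwann cells need throughout their life, and together with EGR2 it switches on the genes of the myelin sheath. In muscle these cells lie in the intramuscular branches of the motor and sensory nerves and cap the neuromuscular junctions, so their RNA is a small and unevenly spread part of a muscle sample.

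The libraries held between 39522890 and 56998875 counts. In the comparison of BML-260 with vehicle over all genes, 0 of 16188 genes had a Benjamini-Hochberg adjusted p under 0.05 by edgeR's quasi-likelihood F-test, while 966 genes had an unadjusted p under 0.05. DESeq2 called 95 genes at that adjusted p. Vehicle replicate 3 stood apart in several ways that are given below, and each result that rests on it is given with and without it. Nothing in the labels says that replicate numbers mark a shared litter or batch.

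All 7 genes were highest in vehicle replicate 3. That library was the highest in CPM (counts scaled to a common library size, with TMM factors) for 31.4% of all tested genes. It was at least 2-fold above every other library for 4 of the 7 genes and for 3.54% of all tested genes. Summed over the 7 genes, the level was 20.5, 18.9 and 91.0 TPM in vehicle replicates 1, 2 and 3, and 27.6, 27.1 and 28.6 TPM in BML-260 replicates 1, 2 and 3. In bulk RNA, a sample with more Schwann cells cannot be told apart from one with more of this RNA in each cell.

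**Figure D1:**
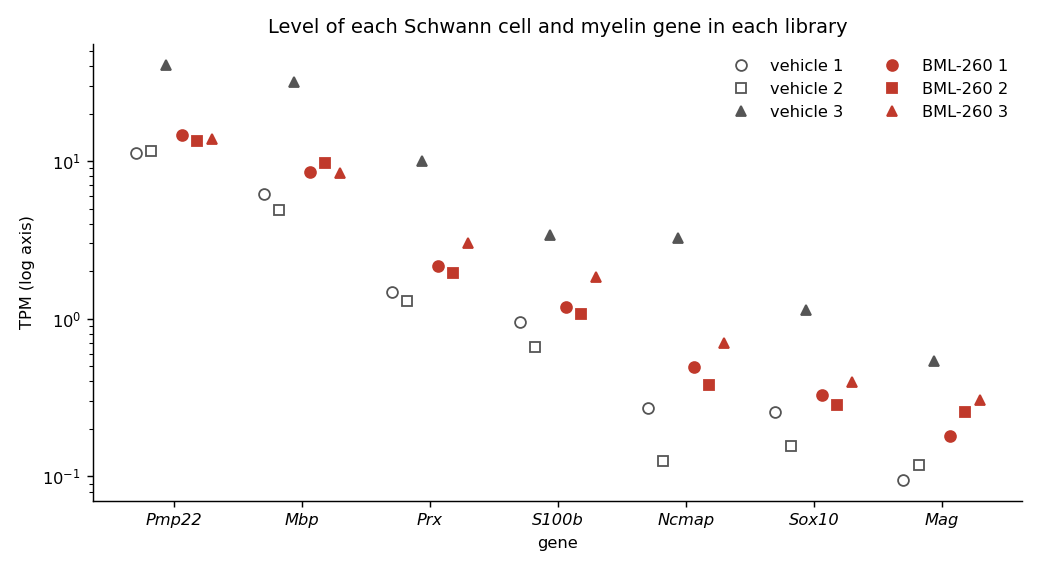
Level of each of the 7 genes in each library, in TPM on a log axis, with 1 point per library. Grey points are vehicle and red points BML-260, and the filled grey triangle is vehicle replicate 3, which was the highest library for every gene (40.8 TPM for Pmp22, 0.538 TPM for Mag). Without it, each BML-260 point lies above both remaining vehicle points of the same gene.

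The structural proteins of the sheath made up most of this RNA. Pmp22 (chr11:63128982-63159547, plus strand, build GRCm38) encodes a tetraspan protein of compact myelin whose duplication in people causes an inherited neuropathy, and other cells of muscle also express it. Its level was 11.3, 11.6 and 40.8 TPM in the 3 vehicle libraries and 14.7, 13.4 and 13.9 TPM in the 3 BML-260 libraries. Mbp, the myelin basic protein that holds the cytoplasmic faces of the membrane together, stood at 6.21, 4.87 and 31.9 TPM with vehicle and at 8.54, 9.71 and 8.45 TPM with BML-260. For both genes the BML-260 libraries lay between the lower vehicle pair and vehicle replicate 3, so the groups overlapped. The gene-level value of Mbp sums all of its transcripts, including the longer ones that cells outside the nervous system make. Pmp22 and Mbp together were the first and second of the 7 genes by TPM in all 6 libraries.

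The proteins that shape the outer sheath were lower. Prx (chr7:27499305-27520041, plus strand) encodes periaxin, which ties the Schwann cell surface to its basal lamina together with DRP2. Its level was 1.48, 1.29 and 10.004 TPM with vehicle and 2.16, 1.96 and 3.01 TPM with BML-260. Ncmap (chr4:135369576-135398240, minus strand) encodes a small membrane protein of noncompact myelin, and showed 0.270, 0.125 and 3.24 TPM with vehicle and 0.492, 0.383 and 0.698 TPM with BML-260. Ncmap thus had the widest spread of the 7 genes: vehicle replicate 3 stood 8.23-fold above the mean of the other 5 libraries in TPM and 5.49-fold above it in CPM.

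Mag (chr7:30899175-30914922, minus strand) encodes the myelin-associated glycoprotein of the membrane that faces the axon, and was the least abundant. Its level was 0.0948, 0.118 and 0.538 TPM with vehicle and 0.180, 0.258 and 0.306 TPM with BML-260. These values rest on 8, 8 and 39 counts with vehicle and on 17, 19 and 18 counts with BML-260. Taken as independent reads, 8 counts have an exact 95% Poisson interval of 3.45 to 15.8, which covers counting error only. The same interval was 9.90 to 27.2 for 17 counts and 27.7 to 53.3 for 39 counts.

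The transcription factor and the calcium-binding marker had the same order of libraries in TPM as Prx and Ncmap, with vehicle replicate 3 first and vehicle replicate 2 last. Sox10 (chr15:79154913-79164490, minus strand) showed 0.257, 0.156 and 1.14 TPM with vehicle and 0.326, 0.282 and 0.395 TPM with BML-260. S100b (chr10:76253836-76261319, plus strand), which encodes a calcium-binding protein used as a marker of Schwann cells and also present in other cells, showed 0.956, 0.663 and 3.40 TPM with vehicle and 1.19, 1.07 and 1.85 TPM with BML-260. By mean TPM the order was Pmp22, Mbp, Prx, S100b, Ncmap, Sox10 and Mag. This order held in 5 of the 6 libraries, and in vehicle replicate 2 Sox10 and Ncmap changed places, so these neighbours did not differ beyond the spread over libraries.

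The size of the excess in vehicle replicate 3 depended on the scale. In TPM, vehicle replicate 3 was the highest library for 61.4% of the 16800 genes listed, and the median gene was 1.40-fold above the mean of the other 5 libraries, so levels in TPM are to be read relative to that shift. For the 7 genes, the level in vehicle replicate 3 over that mean ran from 2.81-fold (Mag) to 8.23-fold (Ncmap) in TPM, and from 1.97-fold (Mag) to 5.49-fold (Ncmap) in CPM. The direction was the same on both scales for all 7 genes.

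The upstream sequences of Mag and Prx are shown because both genes encode proteins of the myelinating cell, were highest in vehicle replicate 3, and differ in whether they hold a Sox family motif. RefSeq promoter windows (GRCm38.p6) were searched on both strands for ACAAAG and ACAATG, short forms of the Sox family motif, and for GTGGGCG, the Egr family motif. Windows were found for Pmp22, Mag, Prx, Ncmap and S100b. The 250 bases before the most upstream start in the table are at chr7:30914923-30915172 (minus strand) for Mag and at chr7:27499074-27499323 (plus strand) for Prx. The last 19 bases of the Prx window lie inside the extent that RefSeq gives for the gene. Both are printed from 5′ to 3′ in the direction of the gene, with the motif match in capitals.
Mag: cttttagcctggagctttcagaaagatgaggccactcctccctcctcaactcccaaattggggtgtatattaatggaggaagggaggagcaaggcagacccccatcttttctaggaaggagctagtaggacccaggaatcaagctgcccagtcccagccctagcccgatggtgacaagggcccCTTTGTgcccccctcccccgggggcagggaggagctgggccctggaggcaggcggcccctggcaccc
Prx: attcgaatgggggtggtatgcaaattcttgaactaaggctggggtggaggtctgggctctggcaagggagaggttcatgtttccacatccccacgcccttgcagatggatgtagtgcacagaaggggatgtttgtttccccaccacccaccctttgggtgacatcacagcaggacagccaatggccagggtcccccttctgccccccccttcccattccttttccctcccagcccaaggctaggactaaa
The capitals in Mag are ACAAAG on the opposite strand, starting 67 bases before the start site. The same match lies in the overlapping window of a second Mag start. No other window of the 5 genes held any of the motifs in its 250 bases. Among 27025 genes with a window, taking the most upstream one, 16.5% held ACAAAG, 10.9% held ACAATG and 7.04% held GTGGGCG in the 250 bases before the start. A match is a description of the letters and not of a bound site.

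In the comparison of BML-260 with vehicle, 0 of the 7 genes reached an adjusted p under 0.05. None reached the fold and p threshold either, which asks for a change of 1.3-fold or more at an unadjusted p under 0.05. Of all tested genes 5.75% reached it (0.896% higher with BML-260 and 4.86% lower). The groups overlapped for all 7 genes, while they did not overlap for 12.1% of all tested genes. The log2 fold change was below 0 for 5 genes and above 0 for Mag and S100b, and it was below 0 for 50.5% of all tested genes. With the same 6 libraries, 0 of the 7 values were below 0 under limma voom with sample quality weights (median 0.53), and 3 of 7 were below 0 with the replicate number as a block. In the edgeR fit the median over the 7 genes was -0.31, and the median of all tested genes was -0.0039.

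For Mbp the mean was 14.3 ± 15.2 TPM with vehicle (SD, n = 3) and 8.90 ± 0.703 TPM with BML-260 (SD, n = 3). Its log2 fold change was -0.53 with a standard error of 0.48 (edgeR adjusted p = 0.80). Ncmap had the most negative value, -0.77 with a standard error of 0.89 (edgeR adjusted p = 0.83). The standard errors of Sox10, Mag, Prx, Ncmap and S100b were between 0.48 and 0.89. The log2 fold changes of Pmp22 (-0.31), Prx (-0.50), Sox10 (-0.29), Mag (0.21) and S100b (0.0051) had edgeR adjusted p-values from 0.83 to 1.00. For Mbp the SD was 16.1 CPM among the vehicle libraries, which vehicle replicate 3 (37.8 CPM, against 9.53 and 10.2 CPM) set, and 0.295 CPM among the BML-260 libraries.

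Without vehicle replicate 3, the direction of the comparison turned. All 7 genes were then higher with BML-260, where 50.4% of all tested genes were above 0. For all 7 genes each BML-260 library was above both remaining vehicle libraries, and 8.31% of all tested genes showed this. Vehicle replicate 3 was the highest library for all 7 genes, so leaving it out lowers each of their vehicle means by construction. Because the 7 genes share that library as their highest, they are not 7 independent observations to set against these shares. The median log2 fold change over the 7 genes was 0.69, beside 0.0017 over all tested genes. At the fold and p threshold 2 of the 7 genes were higher (1.06% of all tested genes), and 0 of 7 reached an adjusted p under 0.05 (0.0364% of all tested genes).

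The 2 genes were Mbp and Prx. Mbp stood at 9.53 and 10.2 CPM in vehicle replicates 1 and 2 and at 13.4, 13.03 and 13.6 CPM in the BML-260 libraries. Its log2 fold change was 0.44 with a standard error of 0.14 (edgeR unadjusted p = 0.00936, adjusted p = 0.63). Prx stood at 4.70 and 3.91 CPM in the same vehicle libraries and at 6.77, 5.57 and 8.55 CPM with BML-260. Its log2 fold change was 0.69 with a standard error of 0.22 (edgeR unadjusted p = 0.00980, adjusted p = 0.65). The other 5 genes had log2 fold changes from 0.27 (Pmp22) to 1.26 (Ncmap) that did not reach this threshold. Leaving out vehicle replicate 1 or vehicle replicate 2 gave values below 0 for all 7 genes, with medians of -0.55 and -0.65, and no gene at the threshold. The sign of the comparison thus depended on which vehicle libraries were included.

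**Figure D2:**
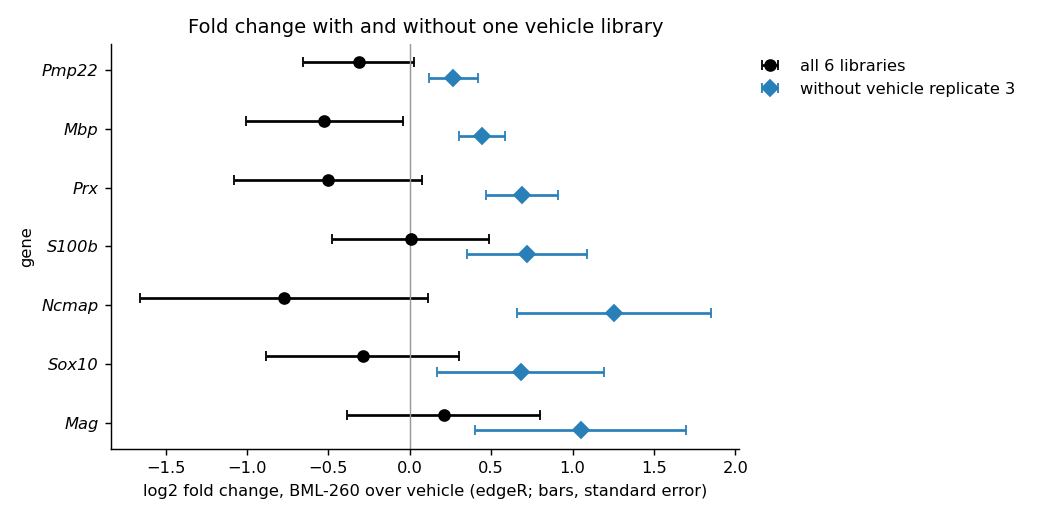
Log2 fold change of each gene, BML-260 over vehicle, from edgeR. Black circles use all 6 libraries and blue diamonds leave out vehicle replicate 3. Bars are standard errors. With all 6 libraries 5 of 7 values lie below 0, and without vehicle replicate 3 all 7 lie above 0, from 0.27 (Pmp22) to 1.26 (Ncmap).

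A nerve index was formed to put the libraries on 1 scale: the mean, over Mag, Prx, Ncmap, Sox10 and Mbp, of log2 CPM centred on each gene's mean over the 6 libraries. Pmp22 and S100b were left out of it because other cells of muscle express them. Mbp was kept, although its longer transcripts are also made outside nerve, and without it the difference between the group means was 0.11 in place of the 0.050 given below. The index was -0.61, -0.88 and 1.42 in vehicle replicates 1, 2 and 3, and 0.0040, -0.20 and 0.28 in BML-260 replicates 1, 2 and 3. Vehicle replicate 3 was the highest and vehicle replicate 2 the lowest, with all BML-260 libraries between them. On this scale vehicle replicate 3 held 3.25-fold the mean of the other libraries. The group means were -0.025 ± 1.26 and 0.025 ± 0.24 (SD, n = 3 each), a difference of 0.050. Against vehicle replicates 1 and 2 alone, the BML-260 mean was higher by 0.77. The index over all 7 genes gave 0.037 and 0.69 for the same differences. No test was made on the index, since the genes were chosen with earlier results known.

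The 7 genes did not move by the same amount. Relative to the mean log2 CPM of the other genes of the index in the same library, Ncmap was 0.87 above its own mean over libraries in vehicle replicate 3 and 0.89 below it in vehicle replicate 2. Mag was 0.76 below its own mean in vehicle replicate 3. Mag had between 8 and 39 counts per library and Ncmap between 6 and 166. The prior count of 2 narrows differences between low counts, and the cause of these departures was not tested. Prx kept the most even ratio to the others, within a range of 0.34 on the log2 scale over the 6 libraries. As a share of the summed TPM of the 7 genes, Pmp22 was lowest in vehicle replicate 3 (44.9%) and highest in vehicle replicate 2 (61.7%).

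Most genes that act beside these 7 in the myelinating Schwann cell were also highest in vehicle replicate 3. Of 17 further Schwann and myelin genes 14 were tested, and 11 of the 14 were highest in that library in CPM and 13 of 14 in TPM. The shares over all genes were 31.4% in CPM and 61.4% in TPM. Drp2, the partner of periaxin, stood at 5.93, 4.07 and 30.6 CPM with vehicle and at 7.41, 9.41 and 9.40 CPM with BML-260. The other genes of the list with this pattern included Mal, Egr2, Cldn19, Gldn, Nfasc and the Schwann cell ligand Dhh. Plekhb1 and Aspa, the most abundant genes of the list at a mean of 37.3 and 14.1 TPM, were not highest there in CPM, nor was Pou3f1, while in TPM Aspa alone was not. Cnp was 1.02-fold above the next library in CPM. Aspa was lower in vehicle replicate 3 (9.12 CPM) than in vehicle replicates 1 and 2 (15.2 and 13.3 CPM). Gjb1, Fa2h and Gal3st1 had between 0 and 29 counts per library and were not tested.

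With all 6 libraries, 0 of the 14 genes reached the fold and p threshold in either direction. Of them 8 had a log2 fold change below 0 and 6 above 0, at a median of -0.14. Without vehicle replicate 3, 12 of 14 were above 0, at a median of 0.46. Drp2 and Dhh then reached the threshold, with log2 fold changes of 0.80 and 1.09 and edgeR adjusted p-values of 0.40 and 1.00.

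**Figure D3:**
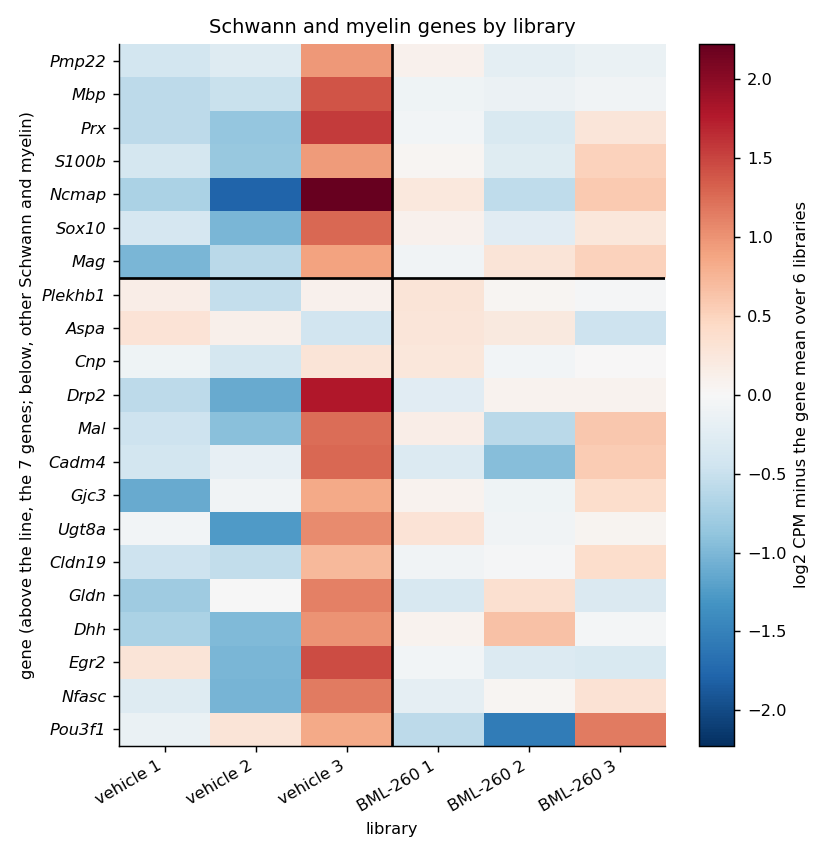
Log2 CPM of the 7 genes (above the line) and of 14 other Schwann and myelin genes (below the line), each centred on its mean over the 6 libraries. Red is above and blue below the gene's mean, and the vertical line separates vehicle from BML-260. Vehicle replicate 3 was the highest library for 7 of 7 genes above the line and for 11 of 14 below it (31.4% of all tested genes).

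Genes of non-myelinating and repair Schwann cells differed from each other in this. Of 12 such genes 7 were tested, and Scn7a, Cdh19 and Matn2 were highest in vehicle replicate 3 in CPM, as were 4 of the 7 in TPM. Over all genes the shares highest in that library were 31.4% in CPM and 61.4% in TPM, so these counts were near them. The neurotrophin receptor gene Ngfr was highest in BML-260 replicate 3 (2.16 CPM) and the adhesion gene L1cam in vehicle replicate 2 (1.87 CPM). The median excess of vehicle replicate 3 over the mean of the other 5 libraries was 1.21-fold in this list, beside 2.18-fold in the other Schwann and myelin genes and 2.79-fold in the 7 genes, in CPM. In TPM these medians were 1.72-fold, 3.08-fold and 4.02-fold. The summed level of the non-myelinating list, in which Scn7a is the largest gene, was 33.3 TPM in vehicle replicate 3 and 11.9 to 14.9 TPM elsewhere, and the difference between the lists was not tested. Gfap had 0 counts in all 6 libraries, which allows up to 3 counts per library. None of the 7 tested genes reached the fold and p threshold, with or without vehicle replicate 3. The median log2 fold change was -0.26 with all 6 libraries. Without vehicle replicate 3 it was -0.080, with 2 of the 7 genes above 0, so the median of this list did not change sign.

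Receptors and regulators of Schwann cells included Tead1 and Yap1, transcriptional partners that many cells of muscle express and the most abundant of the list. Of 12 genes of neuregulin signaling and of Schwann cell transcription, 11 were tested and 0 reached the fold and p threshold. Their median log2 fold change was -0.24 with all 6 libraries. Without vehicle replicate 3 it was -0.074, with 4 of the 11 genes above 0. Erbb3, the neuregulin receptor of Schwann cells, was 5.36, 5.28 and 8.47 CPM with vehicle and 6.71, 6.36 and 7.81 CPM with BML-260. In 8 of the 11 genes vehicle replicate 3 was highest in CPM (31.4% of all tested genes), with a median excess of 1.28-fold. In TPM it was highest for 9 of 11 (61.4% of all genes listed). For Adgrg6, an adhesion receptor that starts myelination, and for Nab1 and Wwtr1 every BML-260 library was below every vehicle library, as was the case for 6.91% of all tested genes. Their log2 fold changes were -0.50, -0.24 and -0.25, with edgeR adjusted p = 0.79 for all 3.

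The sheath of cells around nerve bundles was read from Slc2a1, Cldn1 and Itgb4, genes of perineurial cells that are also active elsewhere. All 3 were highest in vehicle replicate 3, from 2.34-fold to 2.51-fold above the mean of the other 5 libraries. Slc2a1, the glucose transporter GLUT1, reached the fold and p threshold as lower with BML-260, with a log2 fold change of -0.86 (edgeR adjusted p = 0.78). Without vehicle replicate 3 it was still lower (-0.45), while Cldn1 (0.54) and Itgb4 (0.46) were higher, so the 3 genes no longer pointed the same way.

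Axon genes were measured beside them. The cell bodies of motor and sensory neurons lie outside muscle, and most neuronal RNA stays there. Nefl, Nefm, Chat and Slc5a7 had 0 counts in all 6 libraries, and Nefh had 3 counts in vehicle replicate 3 and 0 in the others. Vehicle replicate 3 was highest for 0 of the 4 axon genes that could be tested in CPM and for 2 of 4, Uchl1 and Stmn2, in TPM. Of these, Uchl1 and Stmn2 were lower with BML-260 at the fold and p threshold, at -1.01 and -0.84 on the log2 scale (edgeR adjusted p = 0.79 and 0.75), and leaving out vehicle replicate 3 gave -0.97 and -0.81. This threshold was reached in the lower direction by 4.86% of all tested genes. The log2 fold changes of Prph (0.89) and Tubb3 (0.32), which did not reach it, had the opposite sign.

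Other cells that use SOX10, MBP or MAG were checked by their own markers. The oligodendrocyte genes Mog, Mobp, Opalin and Olig2 had between 0 and 3 counts per library. The melanocyte genes Dct, Tyr, Pmel and Mlana had between 0 and 13 counts per library, with the 13 counts of Dct in vehicle replicate 3 and 13 of Mlana in BML-260 replicate 2. The oligodendrocyte list was thus at or near 0, and the melanocyte genes were low. The 7 genes summed to between 1066 and 6174 counts per library, but not all of them were that abundant. Mbp had between 369 and 2370 counts, Sox10 between 10 and 85 and Mag between 8 and 39. In BML-260 replicate 2, Mlana had 13 counts beside 19 for Mag and 22 for Sox10. The melanocyte counts were thus small beside Mbp but not beside Mag and Sox10.

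Some other cell types also stood apart in vehicle replicate 3. All 7 macrophage genes (Adgre1, Cd68, Csf1r, C1qa, C1qb, Mrc1 and Lyz2) were highest there, and their summed level was 518.6 TPM against 76.2 to 124.8 TPM in the other 5 libraries. Of the 6 adipocyte genes tested, 5 were highest there, with a median of 7.50-fold over the mean of the other 5 libraries. Summed genes of the muscle fiber were lowest there, at 70423 TPM against 77031 to 99420 TPM. The fiber genes did not all go this way, since 2 of the 7, Myh2 and Tnnt3, were highest there in TPM. In CPM only Myh2 was highest there, and Tnnt3 was instead lowest there. Myh2 stood at 1207 TPM in vehicle replicate 3 and at 266 to 505 TPM elsewhere. Satellite cell genes summed to 25.5 TPM there and to between 7.45 and 13.3 TPM elsewhere, but Cdh15 alone gave 24.0 of the 25.5 TPM. Pax7 (0.574 CPM) and Calcr (0.159 CPM) were instead lowest in vehicle replicate 3 in CPM. Of the fibroblast and endothelial genes, 3 of 6 and 2 of 5 were highest there, in CPM and in TPM alike. Vehicle replicate 3 was highest for 31.4% of all tested genes in CPM and for 61.4% of the genes listed in TPM. By this count the fibroblast and endothelial lists did not stand apart. The part of these differences in the levels of the 7 genes was not tested.

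Genes of the muscle's own response to loss of innervation, such as the acetylcholine receptor subunit Chrna1, Runx1, Myog, Gadd45a, Myh3 and Musk, were followed to set nerve RNA beside them. Of the 11 genes of this list, 7 were lower with BML-260 at the fold and p threshold (4.86% of all tested genes), with 0 at an adjusted p under 0.05. Without vehicle replicate 3, 9 of 11 were, beside 2.92% of all tested genes. The summed level of the list was 211, 379 and 470.5 TPM with vehicle and 162, 202 and 236 TPM with BML-260. By summed TPM, vehicle replicate 2 was thus the second highest library for these genes and the lowest for the 7 Schwann cell and myelin genes. Vehicle replicate 3 was the highest by summed TPM for both lists. By gene in CPM, vehicle replicate 2 was the highest library for 7 of the 11 and the lowest for 4 of the 7. It was the lowest for 14.5% of all tested genes, and no share over all genes is given here for the highest. Myh8, the most abundant gene of the list, made up 156.5 TPM of the sum in vehicle replicate 2, and its log2 fold change was 0.17. The macrophage list was likewise lower in 6 of 7 genes at the threshold with all libraries, and in 6 of 7 without vehicle replicate 3. Leaving out that library gave the opposite sign of the median for the 7 genes and the same sign for these lists.

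**Figure D4:**
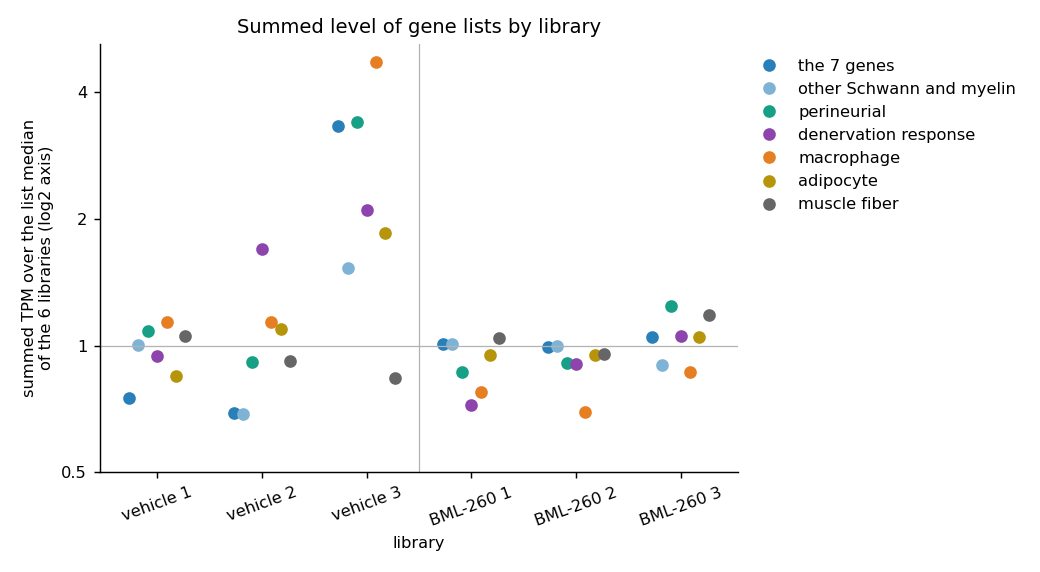
Summed TPM of 7 gene lists in each library, divided by the median of the 6 libraries for that list, on a log2 axis. In vehicle replicate 3 the 7 genes stood at 3.33, perineurial genes at 3.40, macrophage genes at 4.73 and muscle fiber genes at 0.839. In vehicle replicate 2 the denervation response stood at 1.70 and the 7 genes at 0.691.

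Over all genes, the profile nearest to the nerve index was sought among 12837 genes with a mean log2 CPM of at least 0, by the root mean square difference of centred log2 CPM over the 6 libraries. Outside the gene lists, the nearest were Ptprf (0.19), Adgrg2 (0.20), Plk2 (0.24), Aldh1a3 (0.24) and Nt5e (0.25). Of the listed genes that did not enter the index, Nfasc (0.22), Mal (0.23) and Itgb4 (0.23) were nearest. All 5 genes outside the lists were highest in vehicle replicate 3, from 2.44-fold (Ptprf) to 3.62-fold (Aldh1a3) above the mean of the other 5 libraries. This follows from how they were picked, since the index itself is highest in that library.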

How the data were processed

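RNA-seq libraries of total RNA from the TA muscle of 3 vehicle-treated and 3 BML-260-treated mice were analysed, grouped by their labels. Per the submitters' processing notes, reads were trimmed with Trimmomatic 0.38, mapped to mm10 with HISAT2 2.1.0 and Bowtie2 2.3.4.1, and assembled with StringTie 2.1.3b. The authors deposited raw counts per gene for all libraries and TPM values per library, which they scaled for transcript length and library total. A stranded kit was used. Whether counting used strand, and how multi-mapped reads were treated, is not given in the sources used here. The antisense gene Gm15541 overlaps 5.38% of the exonic bases of Prx.

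The TPM tables list 16800 genes, and 45679 of the 45777 genes in the count table matched a RefSeq gene. Counts were tested in R 4.3.3 with edgeR 4.0.16 (filterByExpr, TMM, quasi-likelihood F-test, Benjamini-Hochberg adjustment over all 16188 genes). TMM factors ran from 0.914 to 1.20. A standard error is the size of the log2 fold change divided by the square root of F. A gene was called where its adjusted p was under 0.05, or, for the fold and p threshold, where it changed by 1.3-fold or more at an unadjusted p under 0.05. Level comparisons between genes used TPM, and other values per library used CPM scaled by TMM. Whether same-group libraries came from separate mice rests on the study's description. The p-values set the difference between the groups against the spread between these samples.

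The members and gene lists were chosen with earlier results of these data known, so no list was tested as a set. Named genes are the 7 genes; in each list, those at the threshold (at most 6, by p) and the 3 most abundant; axon, oligodendrocyte and melanocyte genes; and the 5 nearest profiles. Genes that this rule gave for other cell types of muscle were counted and mostly not named. Some genes of the lists are not reported here, and the tallies were made without them. Other list genes were named after their values were seen. The alternatives were other normalizations, filters and tools (DESeq2 1.42.0, limma 3.58.1), TPM with a pseudocount of 1 or 0.1, a replicate block, leaving out each library, and other members in the index. The gene lists without vehicle replicate 3, the relative scale and the counts of highest libraries in TPM were added after seeing the data. On simulated data with 200 changed genes, edgeR recovered 30% at a log2 change of 1 (15829 genes tested) and 94.5% at 2 (15838 genes tested). The changed genes were drawn only from genes with more counts than Mag, Sox10 and Ncmap have. No simulated library was made to stand apart as vehicle replicate 3 does, so these rates do not carry over to the 7 genes. Figures were drawn with matplotlib 3.10.9.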

Additional observations from a re-analysis of the deposited data

How the results depend on the processing

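Under the 9 alternatives that kept all 6 libraries, 0 of the 7 genes were called at either threshold. Limma voom with sample quality weights gave positive log2 fold changes for all 7, against negative ones in edgeR for Pmp22 (0.15), Mbp (0.24), Sox10 (0.53), Prx (0.43) and Ncmap (0.98), at unadjusted p-values of 0.168 or more; the cause was not tested. S100b, at 0.0051, changed sign with upper quartile normalization (-0.020), no filter (-0.0015), at least 10 counts in every library (-0.0044) and log2(TPM + 1) (-0.049). With at least 10 counts in every library, Mag and Ncmap could not be fitted. Leaving out 1 library at a time gave log2 fold changes from -0.55 to 0.27 for Pmp22, -0.85 to 0.44 for Mbp, -0.65 to 0.68 for Sox10, -0.12 to 1.05 for Mag, -0.88 to 0.69 for Prx, -1.26 to 1.26 for Ncmap and -0.30 to 0.72 for S100b. The highest values were those without vehicle replicate 3, and between 0 and 2 of the 7 genes reached the fold and p threshold. The nerve index difference ran from -0.38 to 0.77 over the same omissions.

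Over all genes, an adjusted p under 0.05 was reached by 1 gene with no filter, 1 with at least 10 counts in every library, 1 with limma voom, 95 with DESeq2, and 0 to 9 when 1 library was left out (9 without vehicle replicate 1, 6 without vehicle replicate 3). The fold and p threshold, at 931 genes, was reached by 1416 with no filter, 446 with log2(TPM + 1), and 503 to 2223 when 1 library was left out. Without vehicle replicate 3, 2 other Schwann and myelin genes and 1 perineurial gene were higher at the threshold (0 and 0 with it), and 0 adipocyte genes were lower (2 with it).

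With the replicate number as a block, 0 of the 7 genes were called and 1057 of all genes reached the fold and p threshold, but Sox10 (0.010) and Ncmap (0.018) turned from negative to positive. The correlations of the deviations of same-numbered libraries were 0.16, 0.054 and 0.11, so the numbers were not taken as a pairing, although each library correlated best with its own number. The depth limited Mag, Sox10 and Ncmap, with as few as 8, 10 and 6 counts in a library, and 3 libraries per group limited every comparison.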
